A study of Mus musculus with 16 samples.

Results

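The G protein gamma subunits are the small, lipid-anchored partners of the G beta subunits. The members described here are the 10 genes of the Gng family with a probe set annotated to them alone among 19938 measured genes: Gng2, Gng3, Gng4, Gng5, Gng7, Gng8, Gng10, Gng11, Gng12 and Gng13. The probe set annotated to Gng5 may not read that gene, as described below, and this holds for every Gng5 value given. They were chosen by gene family, with Gng2 set against the others because it was lower in olfactory bulb knockouts, so the knockout effect in the bulb is given as a description without a test. Each member had 1 probe set, and no probe set was shared between members.

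RNA from 2 mouse brain tissues was hybridised to 16 one-colour Affymetrix arrays. The tissues were the olfactory bulb core (OB), in which young neurons settle, and the subependymal zone (SEZ), the stem cell niche beside the lateral ventricle where they are born. The knockouts (cKO) were GlastCreERT2/Brg1fl/fl mice and the controls GlastCreERT2/Brg1fl/+ mice, all on a mixed C57BL/6, CD1 background and aged 2.5 months. There were 3 cKO and 5 control samples of each tissue, giving the 4 groups OB cKO, OB control, SEZ cKO and SEZ control. One SEZ control, replicate 5, was labelled Brg1+/+ and so carried no floxed copy. Brg1, the product of Smarca4, is the motor subunit that lets SWI/SNF complexes move nucleosomes. Every animal carried CreERT2 at the Glast (Slc1a3) locus, a recombinase active in astroglia and their stem cells only after tamoxifen, and the labels list no treatment. Both genotypes thus share the Cre allele, and nearly all controls a floxed copy. The labels call the samples biological replicates but identify no animals. If samples of the same group shared an animal, p-values would measure only the spread between these samples. If an animal gave both an OB and an SEZ sample, the tests between tissues left that pairing out. The cKO and control samples of a tissue would still come from different animals.

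A receptor-activated G protein splits into an alpha subunit and a beta-gamma dimer, and both parts signal. The gamma subunit is prenylated at its C-terminus, which holds the dimer at the membrane, and the dimer acts on inwardly rectifying potassium channels, phospholipase C beta and adenylyl cyclases. Brain cells use several gamma subunits side by side, and which gamma a cell makes helps to decide which receptors its G proteins serve.

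Smarca4 averaged 11.02 ± 0.06 in OB cKO and 11.02 ± 0.04 in OB control samples, and 10.71 ± 0.08 in SEZ cKO and 10.71 ± 0.04 in SEZ control samples (log2 expression values, SD, n = 3 cKO and 5 controls in each tissue). The sources used here do not say whether its probes lie in the floxed exons, and these levels do not show how much of the gene was deleted. In bulk tissue, fewer cells of a type and less RNA per cell cannot be told apart. Arrays also differed within groups along a component that held 41.0% of the within-group variance over all genes, with 7 arrays on one side and 9 on the other. Neuroblast markers were lower in the OB cKO samples, where the mean level of the 9 genes spanned 9.74 to 10.05, against 10.71 to 11.04 in OB controls. This is a description: the list holds 6 of the 9 genes (0.0451% of all genes) that limma with Benjamini-Hochberg adjustment called lower in this contrast, as well as Sox11, which the study itself reported from these arrays. It was put together with those results known and cannot count as independent evidence of its direction. Slc1a3 was low in the cKO samples numbered 3, at 8.85 in the OB and 8.16 in the SEZ. Cortical neuron markers were high in SEZ controls 2 and 4, with list means of 8.23 and 8.65.

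The 3 members Gng2, Gng4 and Gng7 carry most of what follows, and the 250 bases before a RefSeq transcript start of each are printed for reference. Gng2 was the member lower in OB cKO samples, and Gng4 and Gng7 were the members that differed most between the tissues, in opposite directions. The windows are chr14:19976694-19976943 on the minus strand for Gng2, chr13:13783809-13784058 on the plus strand for Gng4 and chr10:81014926-81015175 on the minus strand for Gng7, all from RefSeq on GRCm38.p6. They are printed 5′ to 3′ along each gene, and capitals mark CG dinucleotides.
Gng2: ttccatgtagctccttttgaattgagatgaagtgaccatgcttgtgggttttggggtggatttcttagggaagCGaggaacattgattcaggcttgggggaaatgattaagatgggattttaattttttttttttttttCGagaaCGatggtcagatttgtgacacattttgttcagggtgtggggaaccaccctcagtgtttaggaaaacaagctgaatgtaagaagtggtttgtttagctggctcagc
Gng4: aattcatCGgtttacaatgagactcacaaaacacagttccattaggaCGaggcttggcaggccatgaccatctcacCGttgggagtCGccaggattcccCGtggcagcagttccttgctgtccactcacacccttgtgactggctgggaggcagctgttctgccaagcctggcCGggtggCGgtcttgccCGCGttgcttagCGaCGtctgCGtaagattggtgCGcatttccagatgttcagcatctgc
Gng7: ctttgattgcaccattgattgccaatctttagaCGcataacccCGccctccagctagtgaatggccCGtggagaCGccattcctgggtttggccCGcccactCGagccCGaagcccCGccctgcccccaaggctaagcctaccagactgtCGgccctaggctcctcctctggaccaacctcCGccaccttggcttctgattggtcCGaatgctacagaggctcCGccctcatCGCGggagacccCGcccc
The Gng2 window held 3 CG dinucleotides and 41.2% G and C, a GC content above that of 14.1% of all windows. The Gng4 window held 13 CG dinucleotides and the Gng7 window 15, against a median of 6 over 32851 windows of 27025 genes, whose median GC content was 52.4%. These counts hold for the starts printed and not for the genes: a second Gng4 window held 22 CG dinucleotides, and a second Gng7 window held 2, fewer than that of Gng2. The Gng2 start also lies inside the gene as RefSeq bounds it, so it is not the outermost start. The most among the member windows, 44 CG dinucleotides with a GC content of 82.4%, were in that of Gng5.

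RefSeq windows were at hand for 9 of the 10 members, several with more than 1 start, giving 13 windows. The letters GGGCGG of a GC box, read on both strands, stood in 7 of the 13 windows, at least 1 window each of Gng4, Gng5, Gng7, Gng8, Gng10, Gng12 and Gng13, and in 32.7% of all windows. The short site of NFI factors, TTGGC, was found in 7 of the 13 and in 41.5% of all windows. ACAAAG, a SOX site, was found only for Gng8 and in 16.5% of all windows, and the E-box CAGCTG only for Gng4 and in 13%. No member window held TATAAA, present in 12.4% of all windows, or the octamer ATGCAAAT, present in 1.6%. The Gng2 window held none of these 6 motifs, which says only that these letters were not in those 250 bases. None of these strings contains another, and a match marks letters and not a binding site.

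Gng2, a gamma subunit made by neurons and many other cells, was lower in the OB of the knockouts. Its level was 9.47, 9.60 and 9.31 in the 3 OB cKO samples, against 10.33, 10.19, 10.15, 10.20 and 10.20 in the 5 OB controls. All 3 cKO samples lay below all 5 controls, and the controls lay close together. The means were 9.46 ± 0.15 in OB cKO and 10.22 ± 0.07 in OB control samples (SD, n = 3 and 5), a difference of -0.76 (SE 0.10, 95% interval -0.97 to -0.55), or 1.69-fold lower. Among all 19938 genes this was the 13th lowest difference. The rule that set Gng2 apart used these values, so nothing is read from that place.

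**Figure D1:**
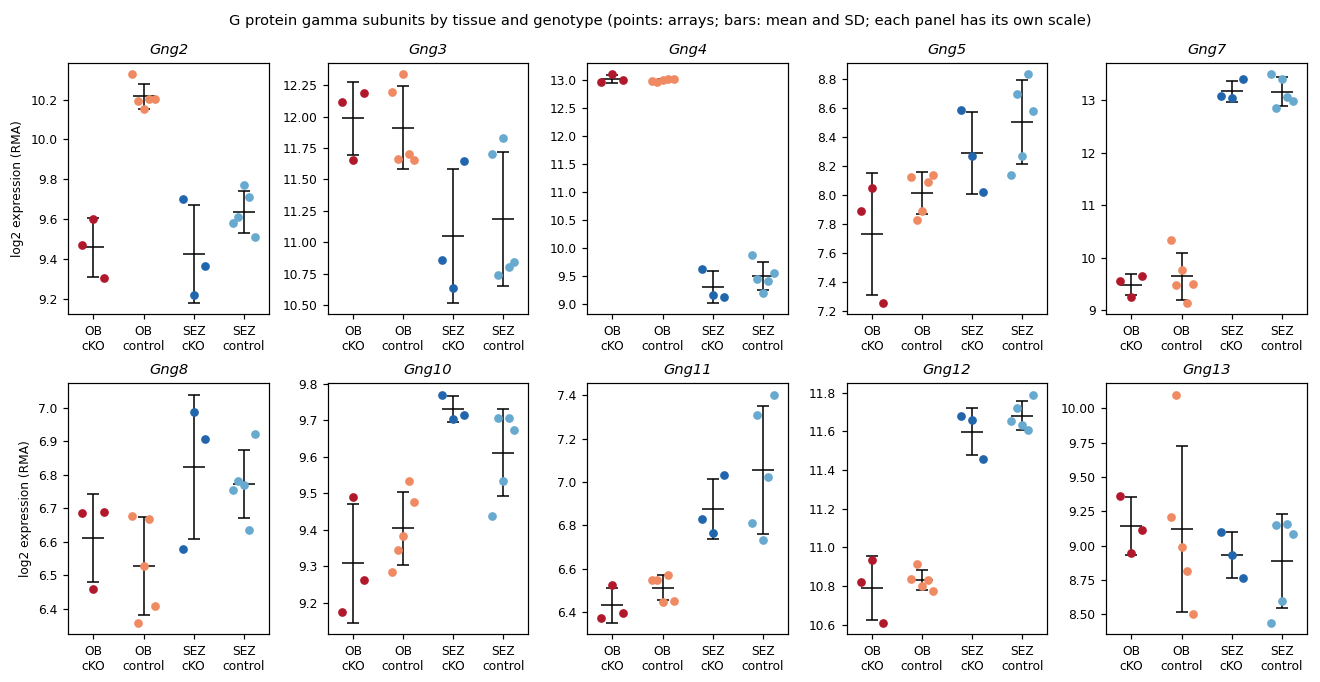
Log2 expression values of the 10 gamma subunits, 1 panel per gene, in the groups OB cKO, OB control, SEZ cKO and SEZ control; each point is 1 array, bars show the group mean and SD, and each panel has its own scale. Gng2 is the panel in which the 3 OB cKO samples, at 9.31 to 9.60, lie apart from the 5 OB controls, at 10.15 to 10.33, while Gng4 and Gng7 split by tissue.

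The other 9 subunits had overlapping cKO and control ranges in the OB. Their differences ran from -0.28 for Gng5 to 0.08 for Gng8, with a median of -0.04 and 5 of 9 below 0, beside a median of -0.005 over all genes. Without OB cKO replicate 3 the Gng5 difference was -0.04. Over all genes, cKO samples lay wholly below controls for 1.57% and wholly above for 0.958%, and limma with Benjamini-Hochberg adjustment called 0.0451% of genes lower and 0% higher. Of the 10 members only Gng2 had OB ranges that did not overlap, and it is the member that was chosen for this. The intervals of the others differ much in width: Gng12 had a difference of -0.04 with an interval of -0.21 to 0.13, whereas Gng3 had 0.08 with an interval of -0.51 to 0.67 and Gng13 0.02 with an interval of -0.54 to 0.58. The intervals of Gng3 and Gng13 were the widest of the 10.

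**Figure D2:**
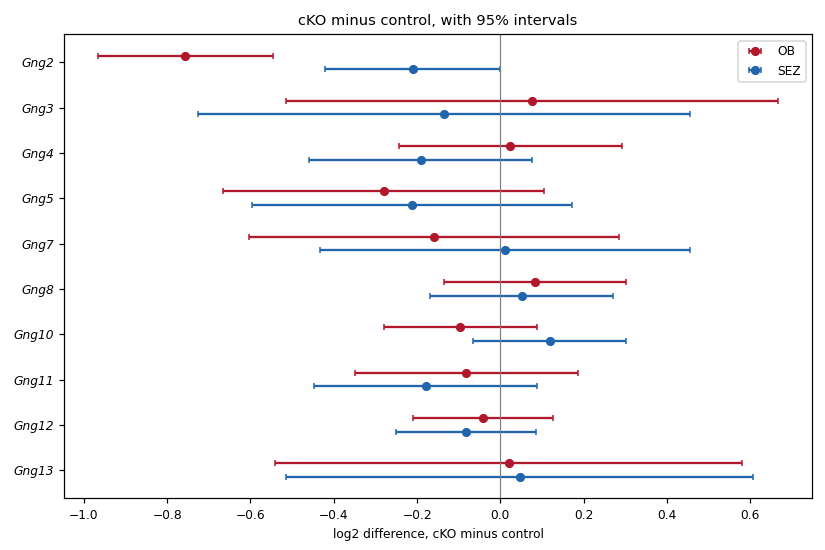
Log2 difference between cKO and control samples (x axis) of each gamma subunit in the OB and in the SEZ, with 95% intervals from the fit of all 16 arrays. Gng2 lies at -0.76 in the OB and at -0.21 in the SEZ, and the other 9 subunits lie between -0.28 and 0.12 in both tissues.

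In the SEZ no gamma subunit passed the test for a knockout effect. Gng2 was measured at 9.70, 9.22 and 9.36 in SEZ cKO samples, against 9.58, 9.61, 9.77, 9.71 and 9.51 in SEZ controls. A cKO sample lay among the controls and the other two lay below them. The difference was -0.21 (SE 0.10, 95% interval -0.42 to -0.001), with an unadjusted p of 0.0488 and an adjusted p of 1 in limma with Benjamini-Hochberg adjustment. Leaving out SEZ cKO replicate 1 gave -0.35 and leaving out SEZ cKO replicate 2 gave -0.11, so single libraries move this value by more than 1.5 times. Without SEZ control replicate 5, the sample labelled Brg1+/+, it was -0.24.

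Across all 10 members, 0 were called in the SEZ, where 0 of 19938 genes (0%) passed and 492 had an unadjusted p under 0.05. Gng2 was the only member with an unadjusted p under 0.05, and all 10 had overlapping ranges, where cKO samples lay wholly below controls for 1.05% of genes. The other 9 differences ran from -0.21 for Gng5 to 0.12 for Gng10, with a median of -0.08 beside a median of 0.004 over all genes. Gng4 came to -0.19 (95% interval -0.46 to 0.08) and Gng11 to -0.18 (-0.45 to 0.09), while Gng7 stood at 0.01 (-0.43 to 0.46). Single arrays moved such values: Gng4 came to -0.35 without SEZ cKO 1 and to -0.10 without SEZ cKO 3 or SEZ control 1, and Gng11 to -0.09 without SEZ control 5. Leaving out SEZ cKO 2 for Gng4 and SEZ control 2 for Gng11 also moved the value by over 1.5 times.

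Set against each other, the SEZ effect of Gng2 minus its OB effect was 0.55 (SE 0.14, 95% interval 0.25 to 0.84). It is given without a test because its OB term chose the gene; over all genes 0.00502% were called for this difference. The same quantity lay between -0.22 and 0.22 for the other 9 members, with a median of -0.03. Ranked by level, Gng2 was highest in OB controls, at 10.22, and next in SEZ controls, at 9.64, a gap of 0.58 that is larger than the spread of either group. OB cKO samples, at 9.46, stood 0.18 below SEZ controls with overlapping ranges. SEZ cKO samples, at 9.43, stood 0.03 below OB cKO samples, far within their SD of 0.25.

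Neuroblast markers lay on the same side of 0 as Gng2 in both tissues. Their median difference was -0.84 in the OB, where all 9 were below 0, but the list was put together with these OB results known. There Islr2 fell by 1.29 and Cd24a, a surface protein of neuroblasts, fell by 1.50 on the log2 scale. Sox11, at -0.885, Dcx, at -0.32, and Dlx2, at -0.205, did not pass in the OB. In the SEZ 0 of the 9 passed, all 9 were below 0 and their median was -0.18, with list means of 9.68 to 9.73 in cKO samples and 9.82 to 10.20 in controls. Medians below 0 in both tissues were not particular to this list. That of 5 markers of proliferating cells was -0.05 in the OB and -0.50 in the SEZ, where all 5 were below 0. That of 4 cortical neuron markers was -0.07 in the OB and -0.59 in the SEZ, where all 4 were below 0. No proliferation or cortical marker passed in either tissue. The part of these lists in the Gng2 values was not tested. On 1 side of the within-group component the Gng2 difference in the OB was -0.85, from 2 cKO and 2 control arrays. On the other side it was -0.60, from only 1 cKO array and 3 controls. The component held 2% of the within-group variance of Gng2. Without the cKO samples numbered 3 the OB difference was -0.68.

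The 5 genes named next followed the Gng2 pattern most closely when each gene was centred on its mean over the 16 arrays. The root mean square difference from Gng2 was 0.16 log2 units for Mex3b, an RNA-binding protein, 0.18 for Zfp846, a zinc finger protein, and 0.20 each for the Wnt ligand Wnt7a, the receptor phosphatase Ptpru and the growth factor Tgfb2. The next gene lay at 0.21, so there is no step after the fifth. Mex3b had the closest OB difference, -0.53, and Zfp846, Wnt7a, Ptpru and Tgfb2 lay between -0.44 and -0.31. None of the subunits came near this: the nearest, Gng10, lay at 0.44, which ranks it 15178th among the genes, and the farthest, Gng7, at 2.02. All these distances share the same arrays and describe likeness of pattern only.

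Between tissues, the family split into members higher in the OB and members higher in the SEZ. In controls, 8 of 10 members passed limma with Benjamini-Hochberg adjustment, 3 higher and 5 lower in the OB. Over all genes 27.5% passed (12.6% higher and 14.9% lower). The 3 include Gng2, whose OB arrays served to pick it, so its place in the count is no test. The others were Gng3 and Gng4, higher, and Gng5, Gng7, Gng10, Gng11 and Gng12, lower. Without OB control 3, SEZ control 2 or SEZ control 5 the count over the 10 members was 5, as it was without both SEZ controls 2 and 4. In cKO samples 6 of 10 passed, 2 higher and 4 lower, where 23.1% of all genes passed (10% higher and 13.1% lower). The ranges of the 2 tissues were apart for 5 members in controls, 2 with the OB above (9.93% of all genes) and 3 with the OB below (11.9%), against 21.9% of all genes in either direction. The 2 with the OB above were Gng4 and, as a description only, Gng2. The ranges were apart for 6 members in cKO samples, 2 with the OB above (14.3%) and 4 below (19%), against 33.3% of all genes in either direction. The SEZ lies against the striatum. All 6 measured striatal neuron markers were lower in OB controls, with list means of 7.93 to 8.11 in OB controls and 12.47 to 12.71 in SEZ controls. How much striatum the SEZ samples held was not tested.

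**Figure D3:**
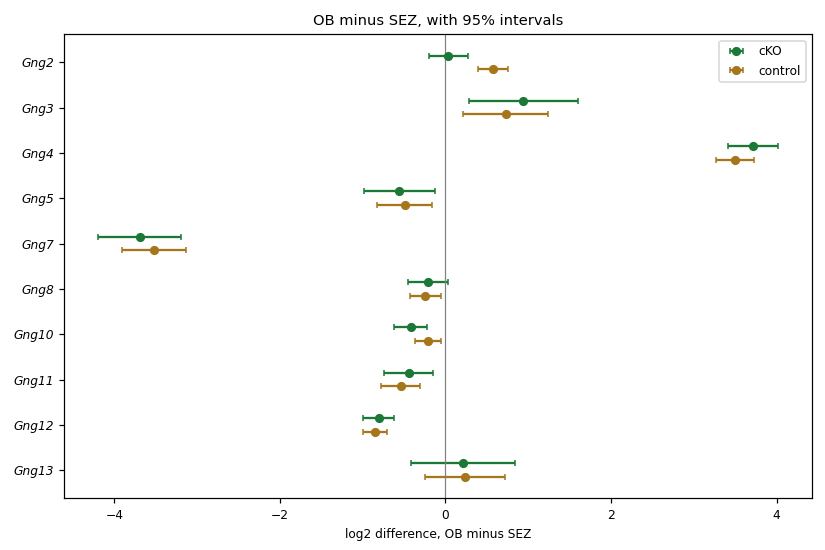
Log2 difference between OB and SEZ samples (x axis) of each gamma subunit, in cKO and in control samples, with 95% intervals from the fit of all 16 arrays. Gng4 lies above 3 and Gng7 below -3 in both genotypes, and Gng2 is the member at 0.03 in cKO samples and 0.58 in controls.

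Gng4, a gamma subunit found mainly in brain, was the member most enriched in the bulb. Its level was 12.96, 13.09 and 12.99 in OB cKO samples, against 9.62, 9.16 and 9.11 in SEZ cKO samples. In controls it was 12.97, 12.95, 13.00, 13.00 and 13.02 in the OB, against 9.86, 9.44, 9.19, 9.39 and 9.55 in the SEZ. The OB samples of both genotypes lay close together, and all SEZ samples lay far below them. The difference was 3.72 in cKO samples (SE 0.14, 13.1-fold, adjusted p = 5.63e-12 in limma) and 3.50 in controls (SE 0.11, 11.3-fold, adjusted p = 2.44e-13). Bulb interneuron markers shared this direction: all 7 were higher in OB controls, beside 12.6% of all genes. List means were 11.13 to 11.32 in OB controls and 7.30 to 7.55 in SEZ controls. The direction was not particular to interneurons. Of the mitral and tufted cell markers 5 of 5 were higher in OB controls, with a median of 2.27. Of the 9 neuroblast markers 6 were higher and 1 was lower, in a list put together with OB results known. The part of these markers in the Gng4 difference was not tested.

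Gng7, the gamma subunit that mouse striatal neurons pair with the olfactory-type alpha subunit Gnal to stimulate adenylyl cyclase Adcy5, was the mirror image of Gng4. It was measured at 9.55, 9.25 and 9.64 in OB cKO samples, against 13.08, 13.04 and 13.40 in SEZ cKO samples. In controls it was 10.34, 9.48, 9.76, 9.13 and 9.49 in the OB, against 13.49, 12.85, 13.41, 13.07 and 12.99 in the SEZ. Every OB sample lay far below every SEZ sample. The OB minus SEZ difference was -3.70 in cKO samples (SE 0.24, 13-fold lower, adjusted p = 2.88e-09 in limma) and -3.52 in controls (SE 0.18, 11.5-fold lower, adjusted p = 1.18e-10). The striatal marker list is far higher in the SEZ samples, as given above, and its part in the Gng7 difference was not tested.

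Gnal and Adcy5 followed Gng7. Gnal was 10.08, 9.55 and 9.80 in OB cKO samples, against 12.08, 12.42 and 12.67 in SEZ cKO samples. Its controls stood at 10.32, 9.53, 10.10, 9.38 and 9.63 in the OB, against 12.72, 12.24, 12.79, 12.40 and 12.31 in the SEZ, with no overlap between tissues. The difference in controls was -2.70 for Gnal (SE 0.18, adjusted p = 2.41e-09 in limma) and -2.87 for Adcy5 (SE 0.11, adjusted p = 2.29e-12). Rgs9, which speeds the hydrolysis of GTP by alpha subunits together with Gnb5, differed by -3.91 (SE 0.10, adjusted p = 2.91e-14), and it is also a striatal marker. The levels of Gng4 and Gng7 in cKO and control samples of the same tissue overlapped throughout.

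The tissue differences of Gng2 are given as descriptions, since its OB arrays served to pick the gene. In controls it was 0.58 higher in OB than in SEZ (SE 0.09, 1.49-fold), with all 5 OB samples above all 5 SEZ samples. In cKO samples the difference was 0.03 (SE 0.11, 95% interval -0.20 to 0.27), with overlapping ranges. The 2 tissue differences hold the same 4 means as the 2 knockout effects. Their contrast is the 0.55 already given and adds no further evidence.

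Gng3, a gamma subunit made mainly by neurons, was higher in the OB but spread widely within groups. Its level was 12.12, 11.65 and 12.19 in OB cKO samples, against 10.86, 10.64 and 11.65 in SEZ cKO samples. In controls it was 12.20, 11.66, 12.33, 11.70 and 11.65 in the OB, against 11.71, 10.74, 11.83, 10.81 and 10.84 in the SEZ. Within each group a set of high and a set of low samples can be told by eye, and the high set is the same set of 7 arrays that lie on one side of the within-group component. That component held 90% of the within-group variance of Gng3. The OB minus SEZ difference was 0.94 in cKO samples (SE 0.31, 1.91-fold, adjusted p = 0.0381 in limma) and 0.73 in controls (SE 0.24, 1.65-fold, adjusted p = 0.0327). Among the arrays of the high side alone the control difference was 0.50 (2 OB and 2 SEZ arrays) and among the others 0.88 (3 OB and 3 SEZ arrays). With the component as a covariate the adjusted p in limma was 2.11e-06, which is no support for the call. The component was computed from these same deviations within groups, Gng3 included, so a smaller spread was built in. Leaving out any one of OB controls 1 and 3 and SEZ controls 2, 4 and 5 ended the control call (adjusted p 0.0802 to 0.0902), as did leaving out OB cKO 1 or 3 or SEZ cKO 1 or 2 for the cKO call (adjusted p 0.117 to 0.164). Without both SEZ controls 2 and 4, whose cortical markers are high, the control difference was 0.45 (adjusted p = 0.26).

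**Figure D4:**
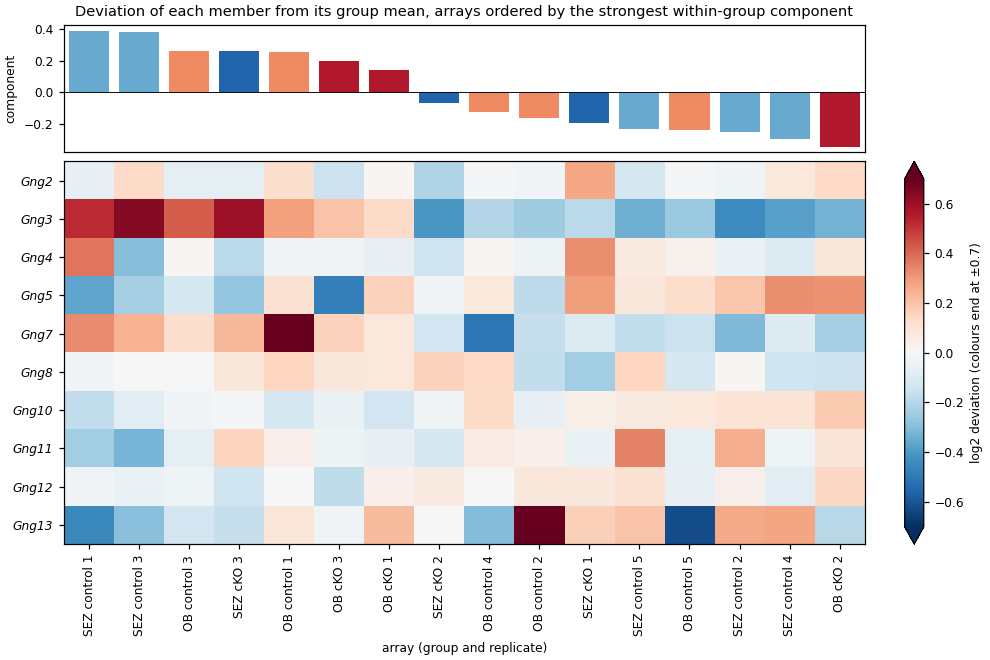
Upper panel, score of each array on the strongest within-group component over all genes, in descending order and coloured by group; lower panel, colour-coded deviation of each subunit from its group mean in log2 units (1 row per gene, 1 column per array, colours end at 0.7 either way). Gng3 is high on the 7 arrays at the left and low on the 9 at the right, Gng10 runs the other way, and Gng2, with 2% of its within-group variance on the component, shows no such split.

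The component touched the members unequally. It held 66.8% of the within-group variance of Gng10, 63.5% of that of Gng7 and 53.1% of that of Gng5, with Gng3 and Gng7 high on the side where Gng5 and Gng10 were low. It held 28.7% for Gng11, 28.6% for Gng12, 16.5% for Gng8, 9.4% for Gng13 and 1.9% for Gng4. The shares are descriptions over 16 arrays whose scores were computed from all genes, these members included. The 7 arrays were OB cKO 1 and 3, SEZ cKO 3, OB controls 1 and 3 and SEZ controls 1 and 3. Every array numbered 2, 4 or 5 lay on the other side, in both tissues and genotypes, as did SEZ cKO 1. The component thus follows the replicate numbers closely, and the labels do not say what these numbers stand for. What sets the 7 arrays apart was not tested.

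Gng13, known in mouse from taste cells, retinal bipolar cells and the olfactory system, passed no test between the tissues. It was 9.36, 8.95 and 9.12 in OB cKO samples, against 9.10, 8.93 and 8.77 in SEZ cKO samples. In controls it was 9.21, 10.10, 8.99, 8.82 and 8.50 in the OB, against 8.44, 9.15, 8.60, 9.16 and 9.09 in the SEZ. OB control replicate 2 was far above its group, and the OB control SD of 0.61 was the widest of any member in any group. The difference in controls was 0.24 (SE 0.23, adjusted p = 0.53 in limma), and without OB control replicate 2 it was -0.008.

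Gng8, known in rodents from olfactory and vomeronasal sensory neurons, passed neither tissue test. Its group means were 6.61 ± 0.13 in OB cKO, 6.53 ± 0.15 in OB control, 6.82 ± 0.22 in SEZ cKO and 6.77 ± 0.10 in SEZ control samples (SD, n = 3 cKO and 5 controls). The OB minus SEZ difference in controls was -0.24 (SE 0.09) and missed the threshold with an adjusted p of 0.0536 in limma, passing in 11 of 27 alternative settings, among them the removal of OB cKO 2, SEZ cKO 1 or 2, OB control 1 or 4 or SEZ control 4 (adjusted p 0.0299 to 0.0484). In cKO samples the difference was -0.21 (SE 0.12, adjusted p = 0.224).

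Gng12, a broadly expressed subunit also made by glial cells, was lower in the OB in both genotypes. It was 10.82, 10.94 and 10.61 in OB cKO samples, against 11.68, 11.66 and 11.46 in SEZ cKO samples. In controls it was 10.83, 10.91, 10.80, 10.83 and 10.78 in the OB, against 11.65, 11.72, 11.63, 11.61 and 11.79 in the SEZ. The tissues did not overlap in either genotype. The difference was -0.81 in cKO samples (SE 0.09, 1.75-fold lower, adjusted p = 2.2e-06 in limma) and -0.85 in controls (SE 0.07, 1.8-fold lower, adjusted p = 3.45e-08).

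Gng11, a broadly expressed subunit that is farnesylated like the transducin gammas, was lower in the OB as well. Its group means were 6.43 ± 0.08 in OB cKO, 6.51 ± 0.06 in OB control, 6.88 ± 0.14 in SEZ cKO and 7.06 ± 0.30 in SEZ control samples (SD, n = 3 cKO and 5 controls). All OB samples lay below all SEZ samples of their genotype, with SEZ controls 2 and 5 the highest, at 7.31 and 7.40. The difference was -0.44 in cKO samples (SE 0.14, adjusted p = 0.0304 in limma) and -0.54 in controls (SE 0.11, adjusted p = 0.00101). The cKO call was lost without OB cKO replicates 1 or 3 or SEZ cKO replicates 1 or 3, with adjusted p between 0.0593 and 0.116.

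Gng10, another broadly expressed subunit, differed little but in the same direction. It averaged 9.31 ± 0.16 in OB cKO, 9.40 ± 0.10 in OB control, 9.73 ± 0.04 in SEZ cKO and 9.61 ± 0.12 in SEZ control samples (SD, n = 3 cKO and 5 controls). The 3 OB cKO samples, at 9.17 to 9.49, lay below the 3 SEZ cKO samples, at 9.71 to 9.77. The difference was -0.42 in cKO samples (SE 0.10, 1.34-fold lower, adjusted p = 0.0036 in limma). In controls the ranges overlapped with a difference of -0.21 (SE 0.075, adjusted p = 0.0485), a call that ended in 16 of 28 alternative settings. Among these were the removal of any single control except OB control 4 and SEZ controls 1 and 3, with adjusted p of 0.0516 to 0.124, and of OB cKO 3 or any SEZ cKO sample, with adjusted p of 0.0549 to 0.0577.

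The probe set annotated to Gng5, a ubiquitous subunit of dividing and resting cells, may not read Gng5. Of the 10 single-gene probe sets nearest to it by number, 0 are on chromosome 3, which holds Gng5, and 7 are on chromosome 16, where RefSeq places the transcribed pseudogene Gng5-ps. For the other 9 members, 7 to 10 of the 10 neighbours were on the gene's own chromosome. Gene and pseudogene cannot be told apart here. The values averaged 7.73 ± 0.42 in OB cKO, 8.01 ± 0.14 in OB control, 8.29 ± 0.28 in SEZ cKO and 8.50 ± 0.29 in SEZ control samples (SD, n = 3 cKO and 5 controls). The OB minus SEZ difference in controls was -0.49 (SE 0.16, adjusted p = 0.0269 in limma), and the difference of -0.56 in cKO samples did not pass (SE 0.20, adjusted p = 0.058). The control call ended without any one of OB controls 2 and 3 and SEZ controls 2, 4 and 5 (adjusted p 0.0577 to 0.0783), and without both SEZ controls 2 and 4 it came to -0.32 (adjusted p = 0.222). The cKO difference passed without OB cKO 2, SEZ cKO 3 or SEZ control 1 (adjusted p 0.023 to 0.0434) and came to -0.32 without OB cKO 3 (adjusted p = 0.308). It also passed with the replicate number as a block (adjusted p = 0.019) and with genotype and number as a random block (adjusted p = 0.0281).

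Markers of several other cell types, though not of astrocytes, were also higher in the SEZ, on the side of Gng10, Gng11 and Gng12. In OB against SEZ controls, 5 of 5 oligodendrocyte markers were lower (list means 10.83 to 11.09 in OB and 11.67 to 12.22 in SEZ controls), as were 5 of 5 ependymal markers (6.95 to 7.17 in OB and 7.73 to 8.22 in SEZ controls). Of the microglial markers 4 of 5 were lower (8.48 to 8.66 in OB and 8.75 to 9.03 in SEZ controls), and of the endothelial markers 3 of 5 (8.51 to 8.96 in OB and 8.80 to 8.97 in SEZ controls). Markers of proliferating cells (5 of 5 lower, median -1.35) and of the choroid plexus (3 of 5 lower, median -0.56) lay on this side too. Over all genes 14.9% were lower and 12.6% higher. Of the 5 astrocyte markers 1 was higher in the OB, Aqp4 at 0.45, and 0 were lower (10.30 to 10.80 in OB and 10.12 to 10.58 in SEZ controls). Their part in the differences of these subunits was not tested.

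Of the 5 G beta subunits, the partners of the gammas, 3 were lower and 0 higher in OB against SEZ controls, beside 14.9% and 12.6% of all genes, with a median of -0.29 beside 0.003 over all genes. The OB minus SEZ difference was -0.68 for Gnb4 (SE 0.10, adjusted p = 2.82e-05 in limma), -0.34 for Gnb2 and -0.29 for Gnb5, the beta subunit that pairs with RGS proteins, while Gnb1, at 0.08, and Gnb3, at -0.07, did not pass. In cKO samples again 3 of 5 were lower in the OB, beside 13.1% of all genes.

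Of 15 measured G alpha genes, 2 were higher and 6 lower in OB controls when set against SEZ controls (12.6% and 14.9% of all genes), with a median of -0.05. Beside Gnal, the largest differences were those of the inhibitory alpha subunits Gnai1, at 0.96 (SE 0.11, adjusted p = 2.92e-06 in limma), and Gnai3, at 0.68, and of the alpha subunit Gna12, at -0.48. In cKO samples 2 were higher and 7 lower (10% and 13.1% of all genes).

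Of 22 measured effectors and kinases of the beta-gamma dimer, 6 were higher and 7 lower in OB controls against SEZ controls (12.6% and 14.9% of all genes). In OB cKO against SEZ cKO samples 7 were higher and 6 lower (10% and 13.1% of all genes). The members that moved furthest took both directions. Adcy8, an adenylyl cyclase stimulated by calmodulin, was 2.45 higher in the OB (SE 0.19, adjusted p = 1.43e-08 in limma), against -2.87 for Adcy5. The inwardly rectifying potassium channel subunits Kcnj3 and Kcnj6, classic targets of beta-gamma, were 2.17 and 2.13 higher.

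**Figure D5:**
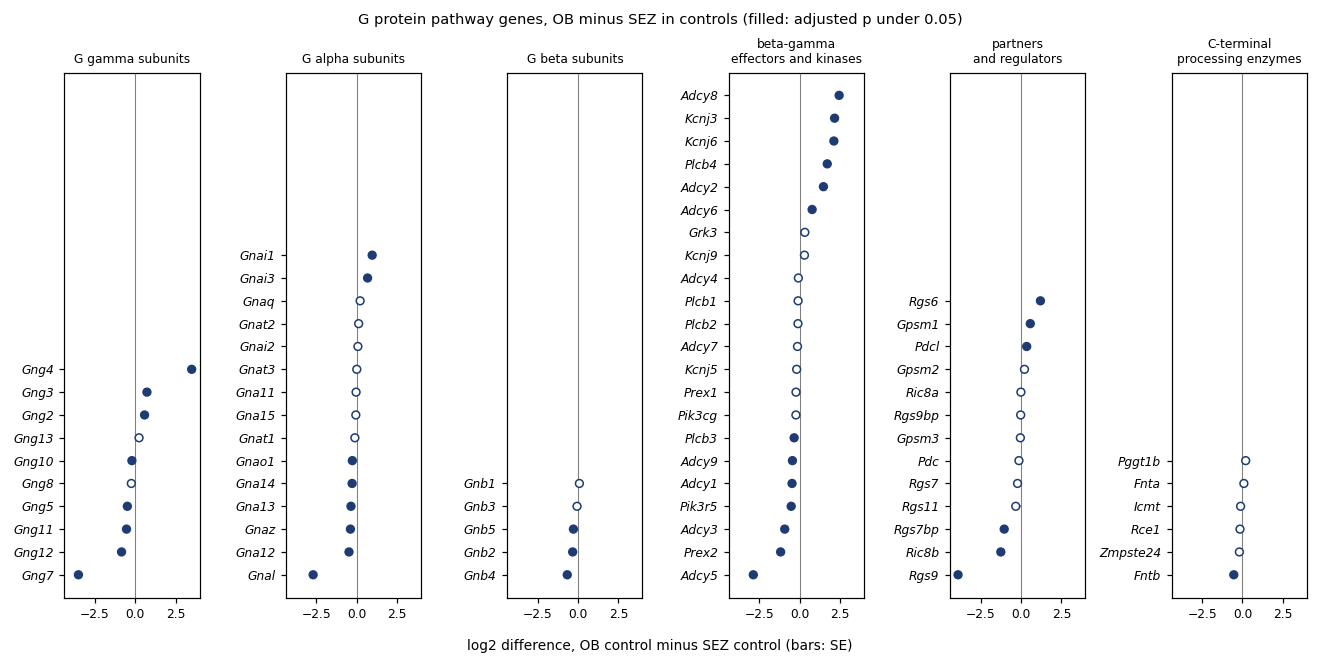
Log2 difference between OB and SEZ controls (x axis) for the measured genes of the gamma family and of the alpha, beta, effector, partner and C-terminal processing lists; each point is 1 gene with its SE, and filled points passed an adjusted p of 0.05. Gng7, Gnal, Adcy5 and Rgs9 lie between -2.70 and -3.91, and Gng4, Adcy8, Kcnj3 and Kcnj6 between 2.13 and 3.50.

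Among the 13 partners and regulators, 3 were higher and 3 lower in OB, in controls (where 27.5% of all genes passed in either direction) as in cKO samples (23.1%). After Rgs9, the largest control differences were those of Ric8b, a chaperone of Gnal, at -1.25 (SE 0.06, adjusted p = 5.14e-11 in limma), Rgs6 at 1.2 and Rgs7bp, the membrane anchor of RGS proteins, at -1.04. The 6 enzymes that process the C-terminus of gamma subunits moved less: in controls only Fntb, the beta subunit of farnesyltransferase, passed, at -0.54 (SE 0.07, adjusted p = 1.92e-05). In cKO samples Fntb and the protease Zmpste24 passed, the second at -0.36. Of the 2 transducin gammas of photoreceptors, 0 passed in either genotype.

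None of the measured genes of these beta, alpha, effector, partner and processing lists passed for cKO against control in the OB, where 0.0451% of all genes passed, or in the SEZ, where 0% did. In the OB the list medians lay between -0.07 for the alpha subunits and 0.001 for the effectors, beside -0.005 over all genes. In the OB the only genes with an unadjusted p under 0.05 were Zmpste24, at -0.25, and Gnaq, an alpha subunit that activates phospholipase C beta, at -0.22, both with an adjusted p of 1 in limma. In the SEZ only Pdc, which binds beta-gamma dimers, had an unadjusted p under 0.05, at -0.20 (adjusted p of 1 in limma).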

How the data were processed

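The authors deposited log2 values, 1 per probe set and array, computed by RMA (background-corrected, quantile-normalised probe values summarised per probe set) in Affymetrix Expression Console 1.2, per the submitters' processing notes. Per the labels' protocols, total RNA was column-purified with DNase treatment, amplified and labelled with biotin. The sources used here do not name the genome build of the probe sets. The platform annotation gave 1 gene symbol to 21789 of 35556 probe sets, several to 1621 and none to 12146, and those with 1 were kept. A RefSeq table of GRCm38.p6 held 21698 of them, and 0 symbols changed. The brightest probe set stood for each of 999 genes with several, leaving 19938 genes. Array medians lay between 7.45 and 7.65, and the highest correlation between 2 arrays was 0.995. The number of arrays limits the precision.

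All 16 arrays were fitted together in limma 3.58.1 (R 4.3.3) with 4 groups and without covariates (12 residual and 4.34 prior degrees of freedom). Tests were two-sided, and Benjamini-Hochberg adjustment ran over the 19938 genes at a threshold of 0.05. Folds are 2 to the power of a log2 difference, and RMA values compress large differences. The fit was run on simulated data with independent noise for each gene and array. Those data lack the shared within-group component, so that run says nothing on how the component affects the calls.

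The members and gene lists were chosen with earlier results of these data known. The rule named all members, the 5 genes most like Gng2 and up to 4 genes of each pathway list with the largest differences among those that passed, or the 2 with the smallest p where none passed. Promoter windows came from RefSeq and were matched by symbol.

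Groups share replicate numbers in the labels. Deviations from the group means correlated between -0.061 and 0.566 for the 8 pairs of OB and SEZ samples with the same genotype and number (7 over 0.1). For the 6 pairs of cKO and control samples with the same tissue and number, which cannot share an animal, they correlated between -0.405 and 0.611 (5 over 0.1). Likeness by number thus also crosses genotypes, and the main fit does not model it. The labels do not tie numbers to animals, so numbers were not taken as pairs in the main fit. Slc1a3 was 8.85 in OB cKO 3 and 8.16 in SEZ cKO 3, against 11.16 to 12.27 in all other arrays. Whether the cKO samples numbered 3 came from 1 animal was not tested. If OB and SEZ samples of 1 number came from 1 animal, the OB minus SEZ tests left that pairing out. Alternatives were other sets of arrays and genes, centring on medians, cyclic loess, a robust trend, array weights, the mean of probe sets, the replicate number as a block, a threshold of 0.1 and leaving out arrays. A covariate for the strongest within-group component was added after seeing the data. It was computed from the deviations within groups, so it leaves the differences as they are and narrows the spread by construction.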

Additional observations from a re-analysis of the deposited data

Results flagged for a closer look

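In OB controls, Gng2 replicate 1 stood apart from the others, at 10.33 against 10.15 to 10.20. The gap to its nearest neighbour made up 0.711 of the range of the group, just past the critical value of Dixon's test for 5 samples. Among the 20 control groups of the 10 members this was the only such sample, and chance flags about 1 in 20. Without it the Gng2 difference between OB cKO and OB control samples was -0.73 and the OB minus SEZ difference in controls was 0.55.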

How the results depend on the processing

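Over 28 alternative settings (27 for Gng8 and Gng11, which fall below the median level), no member difference that had passed changed direction. The differences of Gng4, Gng7 and Gng12 between tissues in both genotypes, that of Gng11 in controls and that of Gng10 in cKO samples passed in all of them. Calls of Gng3 and Gng5 (controls, 6 settings each), Gng10 (controls, 16), Gng3 (cKO, 4) and Gng11 (cKO, 6) were lost in some, and calls of Gng8 (controls, 11) and Gng5 (cKO, 8) were gained. Leaving out single arrays, the Gng2 difference ran from -0.83 to -0.68 in the OB, from -0.35 to -0.11 in the SEZ, from 0.55 to 0.61 between the tissues in controls and from -0.07 to 0.17 in cKO samples, and the SEZ minus OB effect from 0.41 to 0.65. With the replicate number as a block it was -0.77 in the OB, -0.22 in the SEZ (adjusted p = 0.86 in limma) and 0.58 between tissues in controls. The block changed the calls of genes in the OB (5 instead of 9) and in the SEZ (2 instead of 0). Each sample was also compared with the samples of its genotype in the other tissue, 3 for cKO and 5 for controls. Among these, 9 of the 16 samples correlated best with the one of their own number, and some such matches arise by chance.

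The number of genes called for cKO against control in the OB was 9. It was 3 with only the arrays of the 2 groups, 5 with cyclic loess, 5 without both SEZ controls 2 and 4, 2 without the cKO samples numbered 3 and 28 with a covariate for the within-group component, which also gave 4 genes instead of 0 in the SEZ. Single arrays left out gave 2 (without OB cKO 3) to 9 in the OB, 0 in the SEZ, 4910 to 5596 between tissues in controls and 3605 to 4855 in cKO samples. Of the 10 members, Gng2 included, 5 to 9 were then called in controls and 4 to 7 in cKO samples, and 5 in controls without both SEZ controls 2 and 4. The cause was not tested. With 3 cKO samples a tissue, small knockout effects cannot be told from none.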
